A study of Mus musculus with 48 samples.

Results

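The genes described here carry the insulin signal in hepatocytes from the receptor to the FOXO transcription factors. They are Insr (insulin receptor), Irs1 and Irs2 (receptor substrates), Grb14 (a receptor inhibitor), Pdpk1 and Akt1 and Akt2 (kinases), and Foxo1 and Foxo3 (transcription factors). They were chosen by symbol, and all 9 were measured, out of 20486 genes on the arrays. Liver RNA was hybridized on 48 one-colour Agilent arrays, 1 per mouse, in 8 groups of 6. All mice were males with floxed Pik3ca, the gene of the PI3K catalytic subunit p110α. p110αhep-/- mice carried Cre under the albumin promoter, which deletes in hepatocytes, and p110αhep+/+ mice were their littermates without Cre. From 12 weeks of age, mice received for 12 weeks either the HFD, with 60% of calories as fat, or its CTRL diet. They were fed ad libitum or fasted for 24 h, and livers were collected at ZT16 (16 h after lights on).

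When insulin binds its receptor, the receptor phosphorylates IRS1 and IRS2, which recruit PI3K. The lipid PIP3 made by PI3K brings PDPK1 and AKT to the membrane, where AKT is activated. AKT phosphorylates FOXO1 and FOXO3 and keeps them out of the nucleus, so in the fasted liver FOXO proteins are free to act on genes of gluconeogenesis. Irs2 is itself a known FOXO target in the liver. The arrays measured mRNA only, and neither phosphorylation nor protein.

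The sequences just upstream of the start sites of Irs1 and Irs2 are shown. These receptor substrates were called in 11 and 7 of the 12 comparisons between groups. Akt1 was also called in 7 and its promoters are not shown, so the choice does not follow from the calls alone. The 2 sequences come from RefSeq (GRCm38.p6), cover 250 bases, and lie at chr1:82291440-82291689 (minus strand) for Irs1 and chr8:11008930-11009179 (minus strand) for Irs2. That of Igfbp1, the classical insulin-repressed FOXO target, at chr11:7197537-7197786 (plus strand), is set beside them. Capitals mark CAAAACA or its reverse complement TGTTTTG (the core of the insulin response sequence known from Igfbp1) and the E-box CACGTG.
Irs1: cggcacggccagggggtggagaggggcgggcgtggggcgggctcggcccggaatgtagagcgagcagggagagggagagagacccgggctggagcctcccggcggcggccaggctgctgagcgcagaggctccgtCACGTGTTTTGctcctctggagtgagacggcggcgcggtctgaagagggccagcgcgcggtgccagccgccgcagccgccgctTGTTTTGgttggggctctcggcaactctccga
Irs2: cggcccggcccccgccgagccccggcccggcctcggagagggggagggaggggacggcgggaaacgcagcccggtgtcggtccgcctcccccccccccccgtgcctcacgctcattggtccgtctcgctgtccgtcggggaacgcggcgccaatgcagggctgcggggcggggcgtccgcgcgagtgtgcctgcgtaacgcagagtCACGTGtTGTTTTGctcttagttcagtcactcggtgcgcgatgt
Igfbp1: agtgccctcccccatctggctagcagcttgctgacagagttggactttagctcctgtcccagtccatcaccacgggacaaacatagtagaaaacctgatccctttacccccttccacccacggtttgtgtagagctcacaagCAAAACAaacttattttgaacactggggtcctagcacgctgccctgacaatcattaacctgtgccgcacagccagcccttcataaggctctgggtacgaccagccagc

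In Igfbp1, CAAAACA starts 108 bases before the start site. In Irs2, the E-box starts 44 bases before the start site and TGTTTTG 37 bases before it. In Irs1, the E-box starts at 115 bases and TGTTTTG at 111 and at 32 bases, so that the first TGTTTTG shares letters with the E-box. On both strands, CAAAACA occurred in 5.56% of 32851 RefSeq promoters of the same length and CACGTG in 6.02%. The FOXO core GTAAACA, found in 3.17%, was matched in 1 promoter of Akt1. The table held 13 promoters of 8 of the 9 members, and 3 of them held a match to any of the 3 motifs. The share of all promoters with a match to any of the 3 was not counted, so no excess among the members can be read from this. A match is a run of letters and was not measured as a binding site.

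Members were read by 21 probes, of which 20 were well above background on all 48 arrays. The other, a Grb14 probe for another transcript, was above background on none (0 of 48). Each gene is given by its brightest probe, whose positions in mm9 run from 82229692 to 82229751 on chromosome 1 for Irs1 and from 11004490 to 11004549 on chromosome 8 for Irs2. Irs1 and Irs2 had only 1 probe each, so their results could not be set beside a second probe. Levels are normalized log2 signals, and a difference of 1 is a doubling. Differences come from a weighted fit in limma, so they can depart slightly from the difference of the plain means. A gene was called when its p-value, adjusted over all probes, was at most 0.05. Arrays were labelled as separate mice, and 50.1% to 57.4% of their probes were well above background.

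The labelled tissue was checked first. The log2 of the summed signal of 7 hepatocyte markers lay between 20.49 and 20.65 on every array, and 4 of 5 pancreatic acinar markers were not well above background. Single hepatocyte markers did differ between genotypes. In p110αhep-/- mice 2, 3, 2 and 3 of the 7 were called higher and 0, 1, 1 and 1 lower in CTRL fed, CTRL fasted, HFD fed and HFD fasted mice. Cps1 (0.53 to 1.36) and Ass1 (0.3 to 0.4) were called higher in all 4 comparisons, and Ttr (-0.25 to -0.1) was called lower in 3. The signal of the single Pik3ca probe was called higher, not lower, in p110αhep-/- mice in 3 of 4 comparisons. Its difference (p110αhep-/- minus p110αhep+/+) was 0.39 in CTRL fed, 0.08 in CTRL fasted, 0.58 in HFD fed and 0.25 in HFD fasted mice. Whether the probe lies in the deleted part was not analysed here, and it was not used to check the labels. Most bile duct markers were lower in p110αhep-/- mice. The log2 of their summed signal was 9.13 to 10.14 in these mice and 10.5 to 12.4 in p110αhep+/+ mice, and 3 to 4 of 5 markers were called lower in each genotype comparison. Lower calls made up 10.6% to 17.7% of all genes in these comparisons. Spp1 differed most, by -1.75 to -2.63, against -0.27 to -0.89 for Krt19, -0.13 to -0.51 for Krt7 and -0.2 to -0.47 for Epcam. Sox9 was called in 1 of 4 comparisons and ranged from -0.44 to 0.18. Of 5 adipocyte markers, Adipoq was not well above background, and Cfd was called lower in all 4 genotype comparisons (-4.11 to -5.56). The other 3 did not follow it: Lep was called higher in HFD fed mice (0.55), and Plin1 and Retn were not called. The adipocyte sum was 7.92 to 11.11 in p110αhep-/- and 9.32 to 15.19 in p110αhep+/+ mice. The endothelial sum was 14.1 to 14.47 in p110αhep-/- and 13.58 to 14.31 in p110αhep+/+ mice, with 2, 3, 1 and 6 of 7 markers called higher and 1, 0, 1 and 0 lower in CTRL fed, CTRL fasted, HFD fed and HFD fasted mice. The lower one was Lyve1 (-1.13 and -0.82). The stellate sum overlapped, at 14.48 to 15.18 in p110αhep-/- and 14.38 to 15.54 in p110αhep+/+ mice, but 3 of 7 stellate markers were called lower and 1 higher in p110αhep-/- mice on HFD, fed and fasted alike (Col1a1 -1.79 and -2.32, Col3a1 -1.22 and -1.95). On HFD, 4 of 7 were called higher in p110αhep+/+ mice, both fed and fasted, and 0 in p110αhep-/- mice. The part of these markers in the results below was not tested. In whole liver, fewer cells of a type and less RNA per cell cannot be told apart.

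**Figure D1:**
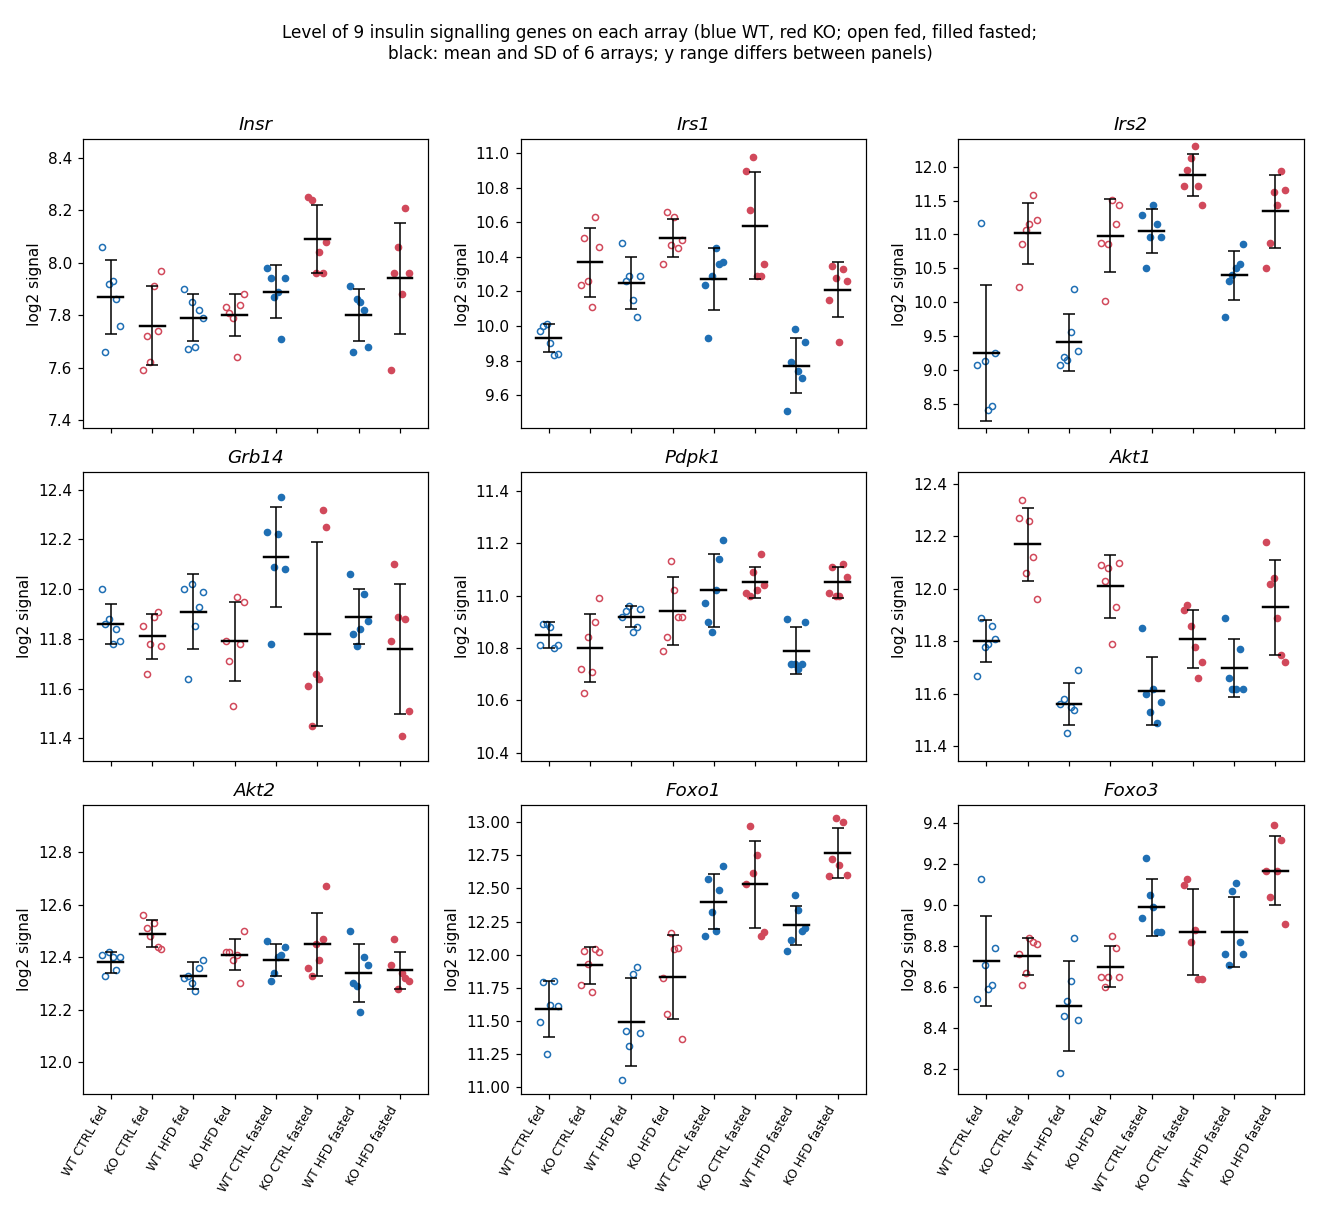
Normalized log2 signal of the 9 genes on each of the 48 arrays (y axis, a separate range for each gene) for the 8 groups (x axis, WT for p110αhep+/+ and KO for p110αhep-/-). Points are mice, bars the mean and SD of 6 arrays; Irs2 spans 8.42 to 12.3, and 1 fed p110αhep+/+ mouse on CTRL diet stands at 11.17 above the other 5.

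The group means of Irs2 spanned 2.62 on the log2 scale, more than those of Foxo1 (1.28), Irs1 (0.81), Foxo3 (0.66) and Akt1 (0.61). Grb14 spanned 0.37, Insr 0.33, Pdpk1 0.26 and Akt2 0.16. Between genotypes, 17 of 36 member tests were called (47.2%), 16 higher in p110αhep-/- mice and 1 lower, against 29% of the same tests over all genes. In CTRL fed mice 3 were called higher and 0 lower (21.5% of all genes were called, 10.9% higher and 10.6% lower), and in CTRL fasted mice 4 and 1 (24.8%; 12.5% and 12.3%). In HFD fed mice there were 3 and 0 (32.9%; 16.6% and 16.3%), and in HFD fasted mice 6 and 0 (36.8%; 19.1% and 17.7%). With the median over a gene's probes in place of the brightest probe, 12 of the 36 genotype tests were called. These include all 4 of Irs1 and all 4 of Irs2, for which this setting brings in no other probe.

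Between fasted and fed mice, 21 of 36 member tests were called (58.3%, against 31.2% of all genes), 16 higher and 5 lower after fasting. In p110αhep+/+ mice 6 were higher and 1 lower on CTRL diet (32.5% of all genes called, 16% higher and 16.5% lower), and 3 and 2 on HFD (28.4%; 13.8% and 14.7%). In p110αhep-/- mice 5 were higher and 1 lower on CTRL diet (35.4%; 16.4% and 19.1%), and 2 and 1 on HFD (28.5%; 13.9% and 14.6%). Between diets, 5 of 36 were called (13.9%, against 15.8%), 1 higher and 4 lower on HFD. These were 1 and 1 in fed p110αhep+/+ mice (24.1%; 12.4% and 11.7%), 0 and 2 in fasted p110αhep+/+ mice (15.9%; 8.96% and 6.97%) and 0 and 1 in fasted p110αhep-/- mice (10.8%; 5.65% and 5.18%). In fed p110αhep-/- mice limma called 0 (12.2%; 5.82% and 6.38%), and 1, Akt1, had an unadjusted p under 0.05. With the median over a gene's probes, 17 of the 36 fasting tests were called, again with no other probe brought in for Irs1 and Irs2.

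The arrays of the groups compared did not overlap for 3, 0, 1 and 2 of the 9 members between genotypes in CTRL fed, CTRL fasted, HFD fed and HFD fasted mice, where this held for 6.21%, 10.3%, 13% and 14% of all genes. Between fasted and fed mice it held for 1 and 2 members in p110αhep+/+ mice on CTRL diet and HFD (11.8% and 10.9% of all genes) and for 3 and 3 in p110αhep-/- mice (15.6% and 8.44%). Between diets it held for Irs1 in fed p110αhep+/+ mice (9.51%), and for no member in fasted p110αhep+/+ (5.86%), fed p110αhep-/- (3.9%) and fasted p110αhep-/- mice (4.1%). Since these comparisons share groups, their counts are not independent. All 48 calls, interactions included, had the same sign within each of the 2 wash batches, sets of slides washed together, which held 3 arrays of every group. The calls were made on these same arrays, so the shared sign is partly built in and is not a replication.

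**Figure D2:**
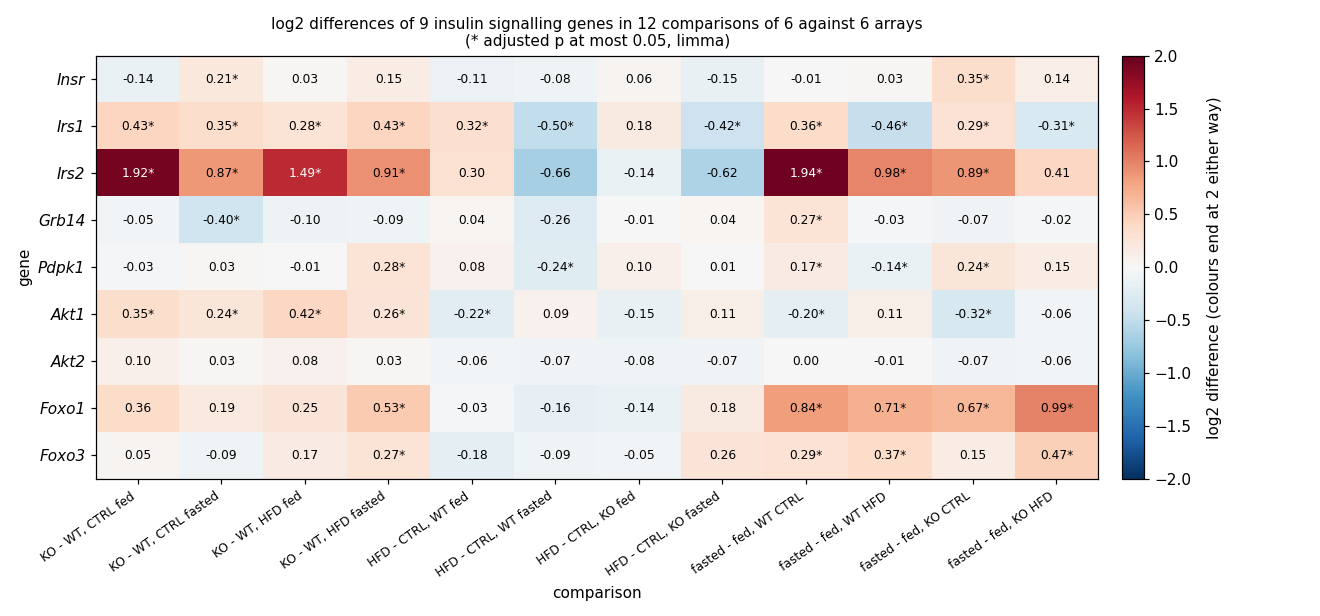
log2 difference of each gene (rows) in 12 comparisons of 6 against 6 arrays (columns), with colour and printed value giving the difference and a star marking an adjusted p of at most 0.05. The Irs2 row is positive in all 4 genotype comparisons (0.87 to 1.92), the Irs1 row changes sign between the diets in the fasting comparisons, and the Akt2 row holds no star.

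Irs2 mRNA was higher without hepatocyte p110α in all 4 combinations of diet and feeding, with the larger differences in fed mice. In CTRL fed p110αhep+/+ mice its level was 8.42 at the lowest, 9.11 at the median and 11.17 at the highest, and in p110αhep-/- mice 10.23, 11.12 and 11.58. Sets of 3 levels are given in this order from here on. The groups overlapped through 1 p110αhep+/+ mouse, replicate 2, and the other 5 lay below every p110αhep-/- mouse. Irs2 was 3.78-fold higher in p110αhep-/- mice (log2 difference 1.92, SE 0.27, adjusted p = 8.11e-07). On HFD, fed p110αhep+/+ mice had 9.08, 9.24 and 10.19, and fed p110αhep-/- mice 10.02, 11.02 and 11.51, a 2.8-fold difference (1.49, SE 0.27, adjusted p = 2.82e-05). Only the ends of these ranges overlapped.

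In fasted mice the difference was called as well. It was 1.83-fold on CTRL diet (0.87, SE 0.26, adjusted p = 0.0103) and 1.88-fold on HFD (0.91, SE 0.28, adjusted p = 0.00837). CTRL fasted p110αhep+/+ mice had 10.5, 11.06 and 11.44, and p110αhep-/- mice 11.44, 11.83 and 12.3, so the ranges met at a single value. On HFD the fasted levels were 9.78, 10.45 and 10.86 in p110αhep+/+ mice and 10.51, 11.53 and 11.93 in p110αhep-/- mice. In the 2 wash batches, the difference was 1.99 and 2.04 in CTRL fed, 0.51 and 1.17 in CTRL fasted, 1.89 and 1.29 in HFD fed and 1.13 and 0.76 in HFD fasted mice.

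Fasting raised Irs2 3.83-fold in p110αhep+/+ mice on CTRL diet (1.94, SE 0.26, adjusted p = 1.28e-07) and 1.97-fold on HFD (0.98, SE 0.25, adjusted p = 0.00256). In p110αhep-/- mice it rose 1.86-fold on CTRL diet (0.89, SE 0.26, adjusted p = 0.00699). On HFD the p110αhep-/- difference of 0.41 (SE 0.29) was not called (adjusted p = 0.331). Fed p110αhep-/- mice, at 11.02 ± 0.45 on CTRL diet and 10.98 ± 0.54 on HFD (SD, n = 6), had means within their SD of that of fasted p110αhep+/+ mice on CTRL diet, 11.05 ± 0.33. In order of means, fed p110αhep+/+ mice on CTRL diet and on HFD were lowest and did not differ beyond their spread, fasted p110αhep+/+ mice on HFD (10.4 ± 0.36) stood alone, and the remaining 5 groups, from 10.98 to 11.87, each lay within the spread of their neighbour. The genotype by fasting interaction on CTRL diet was not called (-1.04, SE 0.37, adjusted p = 0.104). The diet by fasting interaction was not called either in p110αhep+/+ mice (-0.96, SE 0.36, adjusted p = 0.163).

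Both interactions passed the threshold when the single fed p110αhep+/+ mouse at 11.17 was left out. Without it, that group stood at 8.87 ± 0.39 (SD, n = 5), and the genotype by fasting interaction on CTRL diet was -1.25 (SE 0.32, adjusted p = 0.0178). The diet by fasting interaction in p110αhep+/+ mice was then -1.16 (SE 0.31, adjusted p = 0.038). The lower Irs2 of fasted p110αhep+/+ mice on HFD (-0.66), at an adjusted p of 0.0754 with all arrays, was at 0.0362 without it. The same mouse also had the highest Igfbp1 (13.93, the other 5 reaching 12.48) and Pck1 (16.49, the other 5 reaching 15.27) of its group, both below the lowest fasted p110αhep+/+ mouse on CTRL diet (14.3 and 16.7). Its Foxo3 (9.13) was also the highest of its group, whereas its Foxo1 (11.79), Irs1 (10), Ppargc1a (8.78) and Pdk4 (8.6) lay within the range of the other 5 and its G6pc (14.39) was at the bottom of it.

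For Irs1, the direction of the fasting difference changed with the diet. On CTRL diet, fed p110αhep+/+ mice had 9.83, 9.94 and 10.01, and fasted mice 9.93, 10.33 and 10.45, so the median rose while the ranges overlapped. On HFD, fed p110αhep+/+ mice had 10.05, 10.27 and 10.48 and fasted mice 9.51, 9.77 and 9.98, with no overlap. Fasting thus raised Irs1 1.29-fold on CTRL diet (0.36, SE 0.1, adjusted p = 0.00482) and lowered it 1.37-fold on HFD (-0.46, SE 0.1, adjusted p = 0.00033). The diet by fasting interaction was -0.82 (SE 0.14, adjusted p = 0.00054), where 2.36% of all genes were called.

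The pattern was the same in sign in p110αhep-/- mice. On CTRL diet they had 10.11, 10.36 and 10.63 when fed and 10.29, 10.51 and 10.98 when fasted (0.29, SE 0.1, adjusted p = 0.0273). On HFD they had 10.36, 10.49 and 10.66 when fed and 9.91, 10.27 and 10.35 when fasted, again with no overlap (-0.31, SE 0.11, adjusted p = 0.0346). The interaction was -0.6 (SE 0.15, adjusted p = 0.00978), where 7.9% of all genes were called. Unlike the interactions, the single fasting calls of p110αhep-/- mice were lost on leaving out any of 5 arrays on CTRL diet and any of 4 on HFD. Each was also lost in 6 of 16 alternative settings. In wash batches 1 and 2 the interaction was -0.99 and -0.72 in p110αhep+/+ mice, and -0.79 and -0.51 in p110αhep-/- mice. No genotype by fasting interaction was called for Irs1 (-0.08, SE 0.14 on CTRL diet, and 0.15, SE 0.15 on HFD).

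**Figure D3:**
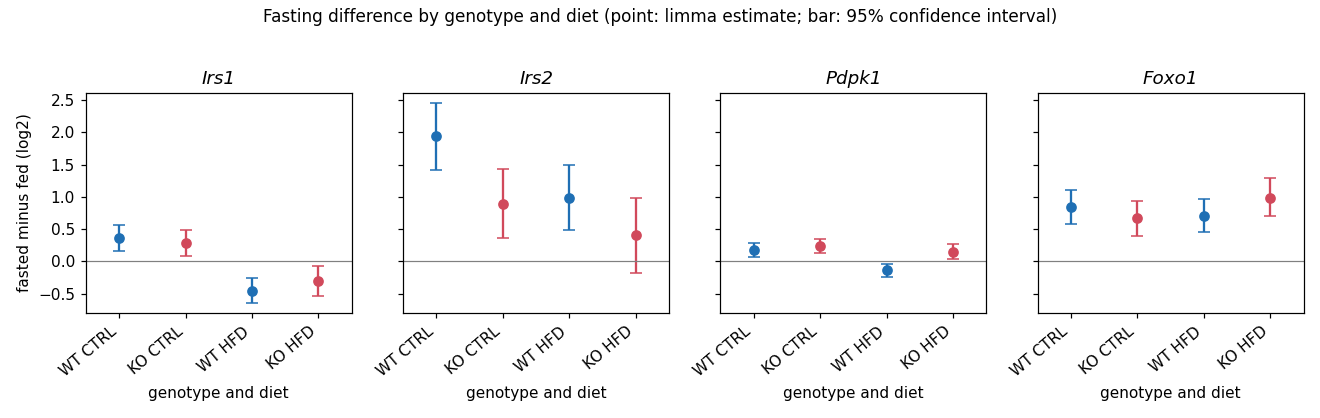
Fasted minus fed difference (y axis, log2) of Irs1, Irs2, Pdpk1 and Foxo1 in each genotype and diet (x axis), with the limma estimate and its 95% confidence interval from 6 against 6 arrays. Irs1 lies above 0 on CTRL diet (0.36 and 0.29) and below 0 on HFD (-0.46 and -0.31) in both genotypes, whereas Foxo1 lies above 0 throughout (0.67 to 0.99).

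Irs1 was also higher in p110αhep-/- than in p110αhep+/+ mice in all 4 genotype comparisons, by 1.34-fold in CTRL fed (0.43, adjusted p = 0.00245), 1.27-fold in CTRL fasted (0.35, adjusted p = 0.00824), 1.22-fold in HFD fed (0.28, adjusted p = 0.0322) and 1.35-fold in HFD fasted mice (0.43, adjusted p = 0.00146). The CTRL fed groups did not overlap. The HFD fed call was lost in 7 of 16 alternative settings and on leaving out any of 4 arrays. The HFD raised Irs1 in fed p110αhep+/+ mice (0.32, adjusted p = 0.0168) and lowered it after fasting, by 0.5 in p110αhep+/+ mice (adjusted p = 0.000446) and by 0.42 in p110αhep-/- mice (adjusted p = 0.00716). In order of group means, HFD fasted (9.77) and CTRL fed (9.93) p110αhep+/+ mice were lowest, and the step from the second to the third group was the only one that exceeded the larger SD of its neighbours. Irs1 was called in 11 of the 12 comparisons, more than any other member (Irs2 and Akt1, 7 each).

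Insr, the receptor, moved little. Its level lay between 7.59 and 8.25 on all arrays, and no step between neighbouring group means exceeded their spread. It was called higher after fasting in p110αhep-/- mice on CTRL diet (0.35, SE 0.07, adjusted p = 0.000222), with 7.59, 7.73 and 7.97 in fed and 7.96, 8.06 and 8.25 in fasted mice. In p110αhep+/+ mice the fasting difference on this diet was -0.01 (SE 0.07), and the genotype by fasting interaction of 0.35 (SE 0.1) was called (adjusted p = 0.0421, with 3.92% of all genes called). This interaction was lost in 11 of 16 alternative settings, and in wash batches 1 and 2 it was 0.47 and 0.27. Insr was 1.16-fold higher in fasted p110αhep-/- than in fasted p110αhep+/+ mice on CTRL diet (0.21, adjusted p = 0.0238). A second, dimmer Insr probe had the same sign but called none of these 3 differences.

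Grb14, whose protein binds the active receptor and dampens its kinase, was the only member called lower in p110αhep-/- mice. On CTRL diet, fasted p110αhep+/+ mice had 11.78, 12.15 and 12.37 and p110αhep-/- mice 11.45, 11.65 and 12.32 (-0.4, SE 0.1, adjusted p = 0.00286). This call was lost in 4 of 16 alternative settings, among them no array weights and only the groups compared, but not on leaving out any single array. In the p110αhep-/- group 2 mice, at 12.25 and 12.32, lay within the range of the p110αhep+/+ mice and the other 4 lay below it. Both dimmer Grb14 probes also called this difference (-0.35 and -0.46), and neither called the next one. Fasting raised Grb14 in p110αhep+/+ mice on CTRL diet (0.27, adjusted p = 0.0345), a call lost on leaving out any of 7 single arrays.

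Pdpk1 encodes the kinase that phosphorylates AKT in its activation loop. Its differences were called but small, none above 1.21-fold in the 12 comparisons. It was higher after fasting on CTRL diet in p110αhep+/+ mice (0.17, adjusted p = 0.0109) and in p110αhep-/- mice (0.24, adjusted p = 0.000487). On HFD it was lower after fasting in p110αhep+/+ mice (-0.14, adjusted p = 0.0329), with 10.86, 10.93 and 10.96 in fed and 10.72, 10.74 and 10.91 in fasted mice. This call was lost in 10 of 16 alternative settings. In p110αhep-/- mice on HFD the value was 0.15 (adjusted p = 0.06). HFD lowered Pdpk1 in fasted p110αhep+/+ mice (-0.24, adjusted p = 0.00136). The genotype by fasting interaction on HFD was called (0.29, SE 0.08, adjusted p = 0.0289, with 3.37% of all genes), as was the diet by fasting interaction in p110αhep+/+ mice (-0.31, SE 0.07, adjusted p = 0.0145). The first of these was lost in 8 of 16 settings and on leaving out any of 7 single arrays, and the second in 6 of 16 settings. Among fasted HFD mice, all p110αhep-/- mice (11 to 11.12) lay above all p110αhep+/+ mice (10.72 to 10.91), a 1.21-fold difference (adjusted p = 0.000121). The second Pdpk1 probe called 3 of the 7 differences and had the same sign in the other 4.

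Of the AKT kinases, Akt1 was called in 7 of 12 comparisons at its brightest probe. Akt2, which is known as the main insulin-responsive form in liver, was not called in any of 18 tests at its brightest probe. Akt1 was higher in p110αhep-/- mice throughout. CTRL fed p110αhep+/+ mice had 11.67, 11.8 and 11.89 and p110αhep-/- mice 11.96, 12.19 and 12.34, without overlap (1.28-fold, adjusted p = 0.00014). HFD fed mice did not overlap either, with 11.45, 11.56 and 11.69 against 11.79, 12.06 and 12.1 (1.34-fold, adjusted p = 4.38e-06). In fasted mice the difference was 1.18-fold on CTRL diet (adjusted p = 0.00616) and 1.2-fold on HFD (adjusted p = 0.00293). Fasting lowered Akt1 on CTRL diet, by 0.2 in p110αhep+/+ mice (adjusted p = 0.018) and by 0.32 in p110αhep-/- mice (adjusted p = 0.000213), and HFD lowered it in fed p110αhep+/+ mice by 0.22 (adjusted p = 0.012). These calls rest on 1 of 3 probes. The 2 dimmer Akt1 probes called 0 and 1 of the 7 differences and had the opposite sign in 2 each. With the median over probes, which for Akt1 follows the middle probe, the genotype difference in CTRL fasted mice was -0.06, not called. For Akt2 the largest of 12 differences at its brightest probe was 0.1, and every 95% interval lay between -0.18 and 0.19. Its CTRL fed arrays did not overlap between genotypes (12.33 to 12.42 in p110αhep+/+ and 12.43 to 12.56 in p110αhep-/- mice). That difference was called under 1 other background correction. With the 75th percentile scaling, the genotype difference in HFD fed mice and the HFD differences in fasted mice of both genotypes were called. Another Akt2 probe was called lower on HFD in fed p110αhep+/+ mice (-0.21, SE 0.06, adjusted p = 0.00804). At the brightest probe this difference was called with the 75th percentile scaling. The median over probes called it too, but that median follows the other probe and adds nothing to it. The mean level of that probe (9.05) lies between those of the remaining Akt2 probes (12.39 and 8.06).

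Foxo1 and Foxo3 rose with fasting. Foxo1 was called in all 4 fasting comparisons, and in each of them every fasted mouse lay above every fed mouse. In p110αhep+/+ mice on CTRL diet, fed mice had 11.25, 11.62 and 11.8 and fasted mice 12.14, 12.41 and 12.67, a 1.79-fold rise (0.84, SE 0.13, adjusted p = 2.37e-06). On HFD the rise was 1.64-fold (0.71, adjusted p = 2.54e-05), from 11.05, 11.41 and 11.91 to 12.03, 12.19 and 12.45. In p110αhep-/- mice it was 1.59-fold on CTRL diet (0.67, adjusted p = 8.76e-05), from 11.72, 11.98 and 12.04 to 12.14, 12.58 and 12.97. On HFD it was 1.99-fold (0.99, SE 0.15, adjusted p = 1.47e-06), from 11.36, 11.93 and 12.16 to 12.59, 12.7 and 13.03. The genotype by fasting interaction was not called on either diet (-0.17, SE 0.19, and 0.28, SE 0.19). In wash batches 1 and 2 the rise was 0.48 and 1.15 in p110αhep+/+ mice on CTRL diet, 0.59 and 0.81 on HFD, and in p110αhep-/- mice 0.68 and 0.69 on CTRL diet and 0.78 and 1.25 on HFD.

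Between genotypes, Foxo1 was called in HFD fasted mice, where all p110αhep-/- mice lay above all p110αhep+/+ mice (1.45-fold, adjusted p = 0.00235). In CTRL fed mice the difference of 0.36 (SE 0.13) missed the threshold at an adjusted p of 0.0511 and passed it in 6 of 16 alternative settings. A second Foxo1 probe called all 5 of the differences that the first one called, with the same sign. Foxo3 rose by 1.22-fold in p110αhep+/+ mice on CTRL diet (adjusted p = 0.0122), 1.3-fold on HFD (adjusted p = 0.00109) and 1.39-fold in p110αhep-/- mice on HFD (adjusted p = 0.000445). In p110αhep-/- mice on CTRL diet its difference was 0.15 (adjusted p = 0.208). It was also higher in HFD fasted p110αhep-/- than in p110αhep+/+ mice (1.21-fold, adjusted p = 0.0261), a call lost in 3 of 16 settings and on leaving out any of 4 single arrays. Of its other 2 probes, 1 called 2 of the 4 Foxo3 differences and the other none, all with the same sign. Neither gene was called between diets. No member had a called genotype by diet interaction (0 of 18 by limma), where 2.83% of all genes were called in fed and 4.96% in fasted mice. At an unadjusted p under 0.05 in limma there were 0 members in fed and 3 in fasted mice. The share of all genes at that threshold was not counted.

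Genes that FOXO proteins are known to activate were read beside the members, since FOXO activity is set by phosphorylation and not by mRNA alone. Of 16 such genes, all measured, 5 were called higher and 0 lower in CTRL fed p110αhep-/- mice, where 10.9% and 10.6% of all genes were. Their median difference was 0.29, against 0.02 over all genes. Igfbp1, which binds IGFs and is repressed by insulin, was at 11.33 ± 1.69 in p110αhep+/+ and at 14.47 ± 0.67 in p110αhep-/- mice (SD, n = 6; difference 3.27, SE 0.46, adjusted p = 8.48e-07). Pck1, a gluconeogenic enzyme, was higher by 1.43 (adjusted p = 2.36e-06). G6pc, which releases glucose, had a difference of 0.46 that was not called, and Ppargc1a, the coactivator of gluconeogenesis, was higher by 0.56.

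On HFD, fed p110αhep+/+ mice already had Igfbp1 at 14.05 ± 0.93, 3.04 above CTRL diet (adjusted p = 1.41e-06), and p110αhep-/- mice had 14.28 ± 1.13. The fitted genotype difference was -0.04 (SE 0.46, adjusted p = 0.955), of the opposite sign to the difference of the plain means, since the fit weights arrays. The genotype by diet interaction of Igfbp1 in fed mice was called (-3.32, SE 0.65, adjusted p = 0.00227), whereas that of Irs2 was not (-0.43, SE 0.38, adjusted p = 0.605). In HFD fed mice 4 of the 16 genes were called higher and 4 lower in p110αhep-/- mice (16.6% and 16.3% of all genes), in CTRL fasted 4 and 4 (12.5% and 12.3%), and in HFD fasted mice 2 and 1 (19.1% and 17.7%). Mttp and Apoc3, which serve lipoprotein assembly and clearance, were among the lower ones in HFD fed mice (-0.43 and -0.27).

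Fasting called 8 of the 16 higher and 4 lower in p110αhep+/+ mice on CTRL diet (16% and 16.5% of all genes), 6 and 4 on HFD (13.8% and 14.7%), and in p110αhep-/- mice 7 and 5 on CTRL diet (16.4% and 19.1%) and 6 and 3 on HFD (13.9% and 14.6%). Pck1 rose by 2.18 in p110αhep+/+ mice on CTRL diet and by 0.76 in p110αhep-/- mice, and this difference was called (genotype by fasting interaction -1.41, SE 0.29, adjusted p = 0.00356). Trp53inp1 and Ccng2, which act in stress and cell cycle arrest, were called higher after fasting in all 4 comparisons (0.74 to 1.83 and 0.69 to 1.38), and Cited2 and Sesn3 lower in all 4. G6pc fell with fasting on HFD in both genotypes (-1.35 and -1) and was not called on CTRL diet (0.08 and 0.34), and its diet by fasting interaction was called in p110αhep+/+ (-1.43, SE 0.29, adjusted p = 0.00364) and in p110αhep-/- mice (-1.34, SE 0.31, adjusted p = 0.00437).

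**Figure D4:**
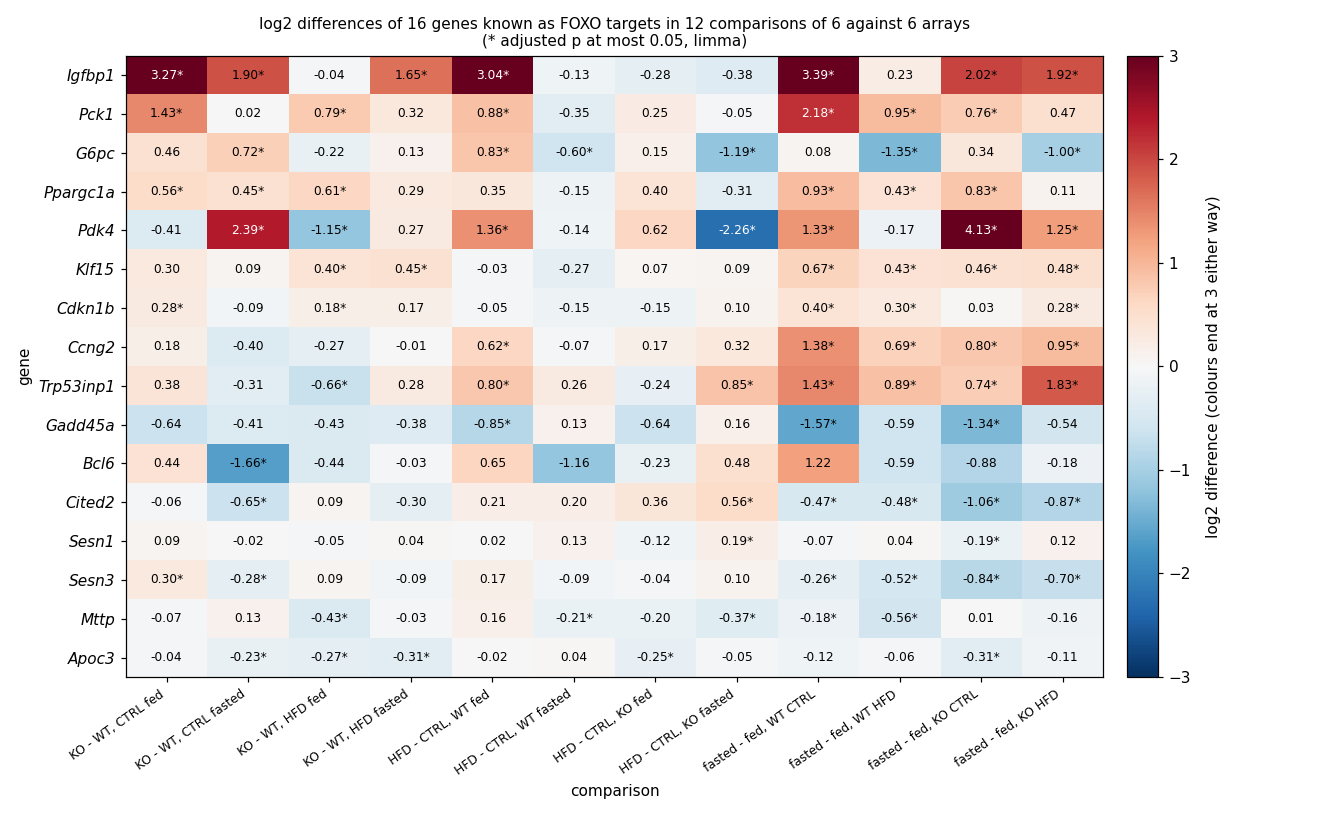
log2 difference of 16 genes known as FOXO targets (rows) in 12 comparisons of 6 against 6 arrays (columns), with a star for an adjusted p of at most 0.05. Igfbp1 stands at 3.27 between genotypes in CTRL fed mice and at -0.04 in HFD fed mice, and the last 4 columns show rises and falls side by side within the list.

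The remaining genes of the pathway were read as lists. Of 19 measured genes that act at the receptor, 5 were called higher and 0 lower in CTRL fed p110αhep-/- mice, 5 and 2 in CTRL fasted, 9 and 0 in HFD fed and 5 and 0 in HFD fasted mice. Over all genes, higher and lower calls made up 10.9% and 10.6%, 12.5% and 12.3%, 16.6% and 16.3%, and 19.1% and 17.7% of the tests in the same order, and these shares apply to the 2 lists that follow as well. Socs3, a feedback inhibitor of cytokine and insulin signalling, was higher by 1.13 (SE 0.26) in CTRL fed, 1.13 in CTRL fasted and 1.5 in HFD fed mice, and its 0.53 in HFD fasted mice was not called. Enpp1, an inhibitor of the receptor, was called higher in all 4 genotype comparisons (0.37 to 0.6), as was the adaptor Sh2b1 (0.15 to 0.3). Ptprf, a receptor phosphatase, was lower in CTRL fasted p110αhep-/- mice (-0.34) and higher in HFD fed ones (0.22). Between diets, 0 to 2 of these genes were called higher and 0 to 3 lower.

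Of 15 genes of PI3K subunits and PIP3 phosphatases, 1, 0, 1 and 1 were called higher and 4, 2, 4 and 2 lower in p110αhep-/- mice, in the same order. The higher one was Pik3ca itself each time. Pik3r3, a regulatory subunit, was lower in all 4 genotype comparisons (-0.41 to -0.79), and Pik3r1, the main one, in fed mice (-0.76 on CTRL diet and -0.48 on HFD). Fasting lowered Pik3r3 in all 4 comparisons (-0.45 to -0.93) and raised Inpp5k, a PIP3 phosphatase (0.36 to 0.54). Of 19 measured partners and targets of AKT, 2, 3, 1 and 2 were called higher and 4, 2, 5 and 4 lower in p110αhep-/- mice, so that 5 or 6 of 19 were called where 21.5% to 36.8% of all genes were. Rictor, a subunit of the mTORC2 kinase that completes AKT activation, was higher in all 4 genotype comparisons (0.19 to 0.3) and after fasting in all 4 comparisons (0.25 to 0.34). Trib3, a pseudokinase that binds AKT, rose with fasting in all 4 comparisons (0.52 to 1.52) and was lower in CTRL fasted p110αhep-/- mice (-1). Sgk2, a kinase related to AKT, rose with fasting in all 4 comparisons (0.9 to 1.33).

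Over the 48 arrays, which share groups and normalization, the genes most like each member were named by Pearson's r as a description. Irs2 was most like 4833411C07Rik and 2210018M11Rik (0.89 each), Foxo1 most like Susd6 and Pim3 (0.92 each), and Akt1 most like Endog (0.86) and Rbbp4 (0.84). Foxo3 was most like Foxo1 itself (0.81) and then Sdc4 (0.8). Pdpk1 was most like Dennd5b and Arhgef12 (0.78 each), and Irs1 most like Zfp395 (0.75) and the transcript BQ944386 (0.72). The nearest genes to Akt2 (Cldn3 and Farp1, 0.68 each), to Insr (Rmrp, 0.64, and Abhd1, 0.63) and to Grb14 (a transcript named only by its position, 0.7, and Agpat3, 0.62) were less alike. Irs2 and Foxo1 had an r of 0.7 with each other.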

How the data were processed

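Liver RNA of 48 mice was measured on Agilent one-colour arrays. Per the labels, the authors labelled 200 ng of RNA with Cy3 and extracted signals with Agilent Feature Extraction 10.10.1.1. The deposited scanner files hold the intensity of each spot, not normalized, with its flags (well above background, outlier), and gene names and mm9 positions. The authors also deposited a table of log2 values of 32437 probes, which was used as an alternative, and how its probes were filtered is not given in the sources used here.

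The log2 median signal of 59305 spots that are not controls was taken without background subtraction, outlier spots (92 to 151 per array) were left out, and spots of a probe were averaged. Probes well above background on at least 5 of 6 arrays of at least 1 group were kept (30793 of 56605). The wash batch was removed with group means protected, and arrays were quantile normalized. limma 3.58.1 (R 4.3.3) fitted 8 group means with array weights (0.35 to 1.72), and p-values were adjusted over all of these probes by the Benjamini-Hochberg procedure. Groups came from the labels. The steps follow those of the authors as far as their methods state them, and the filter on dim probes was set here. The fit was tested on simulated data.

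Genes named are the 9 members, the 2 genes most like each, Pik3ca, Igfbp1, Pck1 and G6pc, and from each list up to 2 genes with the largest rise or fall called in a comparison. Enpp1, Sh2b1, Ptprf, Inpp5k, Rictor, Ppargc1a, Ccng2, Trp53inp1, Cited2, Sesn3, Mttp and Apoc3 were named after their values were seen, whether or not this rule holds them. The members and lists were chosen with earlier results of these data known. Alternatives were other background corrections, scalings, filters, blocks and thresholds, the deposited values, 1 wash batch, and each array left out. The number of arrays limits the precision.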

Additional observations from a re-analysis of the deposited data

Results flagged for a closer look

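Among 72 groups of 6 arrays (9 genes in 8 groups), 2 had an array set apart from the others by a Dixon test, where chance alone gives about 1 in 20. Irs2 in the fed p110αhep+/+ mouse on CTRL diet labelled replicate 2 was at 11.17, with the other 5 between 8.42 and 9.25. Insr in the fed p110αhep-/- mouse on HFD labelled replicate 4 was at 7.64, with the other 5 between 7.79 and 7.88.

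Of 54 interaction tests, 5 were called. These were 2 of 18 for genotype by fasting (3.64% over all genes), 0 of 18 for genotype by diet (3.9%) and 3 of 18 for diet by fasting (5.13%). The fasting difference differed between genotypes on CTRL diet for Insr (0.35) and on HFD for Pdpk1 (0.29). It differed between diets in p110αhep+/+ mice for Irs1 (-0.82) and Pdpk1 (-0.31), and in p110αhep-/- mice for Irs1 (-0.6). In the order named, these calls were lost in 11, 8, 2, 6 and 1 of 16 alternative settings.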

How the results depend on the processing

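Calls are counted here over the tests of the 9 members, in the order genotype (17 of 36), HFD (5 of 36), fasting (21 of 36), genotype by fasting (2 of 18), genotype by diet (0 of 18) and diet by fasting (3 of 18). With arrays of wash batch 1 alone these were 10, 2, 9, 0, 0 and 1, and with those of wash batch 2 alone 7, 1, 11, 0, 0 and 0, from 3 arrays a group. The share over all genes was not counted in any alternative setting, so a lower count can reflect fewer calls among all genes. With a fold change over 1.5 added the member calls were 4, 0, 7, 0, 0 and 2. The median over a gene's probes gave 12 for genotype and 17 for fasting, no array weights 14 and 18, and no filter on dim probes 15 and 16. The median brings in no other probe for Irs1 and Irs2, which had 1 each. The processed signal scaled to its 75th percentile gave 9 for HFD and 0 for genotype by fasting. Genotype by fasting also gave 0 with no filter, no wash correction, no array weights and the median over a gene's probes, and 1 with the wash batch as a block or only the groups compared. Genotype by diet gave 1 with probes above background on all arrays, and the deposited log2 values gave the same 6 counts as above.

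Of the 48 calls, 6 passed in all 16 settings and 37 without each single array. Signs turned for 2 calls, both of Akt1 under the median over a gene's probes, where the genotype difference in CTRL fasted mice was -0.06 and the fasting difference in p110αhep+/+ mice on CTRL diet was 0.12. The 3 Akt1 probes had mean levels of 11.82, 7.67 and 6.59, and the middle one alone gave the same -0.06 and 0.12. For Akt1 this setting is thus a change to 1 dimmer probe. Why the probes differ was not tested. The Irs1 diet by fasting interaction was lost in p110αhep+/+ mice only within single wash batches, and in p110αhep-/- mice only within wash batch 2. Leaving out single arrays gave 16 to 18, 5 to 7, 19 to 22, 1 to 3, 0 to 1 and 3 to 4 calls. Genotype by fasting fell to 1 without, among others, the fasted p110αhep+/+ mouse on CTRL diet labelled replicate 4, and rose to 3 without the fed one labelled replicate 2. The array of lowest weight, a fed p110αhep-/- mouse on HFD, changed no call when left out, other than adding 2 calls of Pdpk1.

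Replicate numbers did not pair the mice (correlations of same-numbered arrays -0.34 to 0.32, with 10 of 48 arrays closest to their own number), and with the replicate number as a block the counts were 18, 6, 21, 1, 0 and 3.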
